A study of Homo sapiens with 3 samples.

Results

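The proteins that end translation and clear stuck ribosomes were examined as mRNAs: how densely ribosomes occupied the coding sequences (CDSs) of these factors, and how often ribosomes passed their stop codons, with and without the aminoglycoside G418. The members were chosen by gene name, and are ETF1, GSPT1, ABCE1, PELO, HBS1L, NEMF, LTN1, ZNF598, TCF25 and VCP. Of these 10 genes, 7 were listed in the tables of all 3 libraries, and GSPT1, PELO and NEMF were not listed in the tables. The 7 listed factors stood among 8812 transcripts (1 per gene) listed in every library, and all 7 were among the 5680 with enough CDS reads for changes to be tested.

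The study profiled ribosomes in HEK293T, an established line of human embryonic kidney origin that expresses SV40 large T antigen. In this assay nuclease removes bare mRNA and the footprints left under ribosomes are sequenced, so that reads on a region count the ribosomes on it. The untreated group had 2 libraries (Untreated A, Untreated B), and a single library (G418 A) came from cells given 500 µg/mL G418 for 24 hours. Where 3 values follow one another, they belong to Untreated A, Untreated B and G418 A in that order. G418 binds the decoding centre of the ribosome and lowers its accuracy. No genotype or other agent separates the groups, and every culture was lysed in cycloheximide.

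The libraries were 5857230, 9477972 and 7216039 reads deep. CDS reads correlated across genes with a Pearson r of 0.988 between the untreated libraries, and of 0.980 between G418 A and either of them (log2 scale, 5680 transcripts, which are not independent replicates). Of the markers of the line, LIN28B had 24.2 to 31.95 RPKM and NEFM 12.5 to 21.3 RPKM, while PAX2 was listed only in Untreated B, at 1.28 RPKM. The blood, liver and endothelial markers PTPRC, ALB and CDH5 were not listed, and the fibroblast gene COL1A1 had 7.98 to 10.7 RPKM. Errors after ± are the SD between the 2 untreated libraries. The study calls the libraries of a treatment biological replicates, and the labels name no cultures. The p-values rest on the spread between these 2 libraries, and values of the G418 group carry no error between cultures. In the edgeR test this spread was shared over all tested transcripts, so a factor's own difference between the untreated libraries had no separate weight.

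Translation ends when a stop codon enters the ribosomal A site and is read by a protein, not a tRNA. The release factor eRF1, made from ETF1, recognises all stop codons and hydrolyses the peptide from its tRNA, and the GTPase eRF3 (GSPT1) delivers it. The ATPase ABCE1 then splits the ribosome into subunits. Ribosomes that stall without a stop codon in the A site are split with the eRF1-like protein PELO and its GTPase partner HBS1L. ZNF598 is the ubiquitin ligase that recognises collided ribosomes. In ribosome-associated quality control, NEMF and the ubiquitin ligase LTN1 act on the peptide that stays on the large subunit, together with TCF25, and the AAA+ ATPase VCP extracts it for degradation. When a near-cognate tRNA takes the stop codon before eRF1 does, the ribosome reads through the normal termination codon (NTC) and continues to the next stop codon in frame in the 3′UTR (3′TC).

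The sequences around the NTC are shown because the stop codon and the nucleotides after it are known to influence readthrough. Each line runs 5′ to 3′ as mRNA (hg38, GENCODE v44), with 15 nt before the NTC, and with the NTC and the nucleotide after it, together the 4-nt stop signal, in capitals.
ETF1: gaccuugaugacuacUAGGuagucgacaug
ABCE1: uuuuucuuggaugauUAGAcugacucugag
HBS1L: acugagauaaaagaaUGAUgggucagaauu
ZNF598: gccaggaucaucacgUAGCucccgccagcg
LTN1: cgugagacguuuuucUGAGauuuuuuucac
TCF25: gagggggagugggacUGAGcguccgcagag
VCP: gaugaccuguauggcUAAGuggugguggcc

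In each of the 7 genes the NTC lay in the last exon. The stop codon of ETF1 was at chr5:138508305-138508307 (minus strand, exon 11 of 11), that of ABCE1 at chr4:145127571-145127573 (plus strand, exon 18 of 18) and that of HBS1L at chr6:134965279-134965281 (minus strand, exon 18 of 18). For the quality control factors, the stop codon of ZNF598 was at chr16:1998232-1998234 (minus strand, exon 14 of 14), that of LTN1 at chr21:28930448-28930450 (minus strand, exon 30 of 30), that of TCF25 at chr16:89911236-89911238 (plus strand, exon 18 of 18) and that of VCP at chr9:35057117-35057119 (minus strand, exon 17 of 17). The 4-nt signal and the length of the readthrough region in the annotation were those of the deposited tables for all 7.

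Of the 7 factors, 3 used UAG (ETF1, ABCE1, ZNF598), 3 used UGA (HBS1L, LTN1, TCF25) and 1 used UAA (VCP). In the 5680 tested transcripts the shares were 21.1% UAG, 48.9% UGA and 30.02% UAA. A purine followed the stop codon in 5 of the 7 factors and in 63.5% of the tested transcripts. ZNF598 had a C and HBS1L a U at that position. The region from the NTC to the 3′TC spanned 24 nt in VCP, 42 nt in HBS1L, 51 nt in ABCE1, 78 nt in TCF25, 93 nt in LTN1, 126 nt in ETF1 and 303 nt in ZNF598, against a median of 66 nt over the tested transcripts. Counting the 3′TC itself, VCP thus offered 8 codons to a ribosome that had passed its NTC, and ZNF598 offered 101.

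The next barrier is the 3′TC, and its surroundings are shown for the factors with the longest in-frame stretch (ZNF598), the highest readthrough with G418 (ABCE1) and a 3′UTR with no in-frame stop codon beyond the 3′TC (TCF25). The 3′TC is in capitals, with 12 nt on each side.
ZNF598: gucacaguggccUGAucugggcccucc
ABCE1: aggaguauuuacUAGaauuuuuuguca
TCF25: cggccaguugccUGAaguagggaagcu

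The 3′TC was UAG in ABCE1 and HBS1L and UGA in the other 5 factors. TCF25 had 1 stop codon in frame in its 135-nt 3′UTR and ZNF598 had 4 in 571 nt, whereas HBS1L had 124 in 4895 nt, ABCE1 45 in 1945 nt and ETF1 35 in 2204 nt. These are the deposited lengths, slightly shorter than the annotated ones, as with 135 against 141 nt in TCF25.

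CDS density is given in RPKM (reads scaled to library depth and per kilobase), a scale per length on which genes can be compared. The tested factors did not change past the threshold. The density of ETF1 (release factor), ABCE1 (recycling factor), HBS1L and ZNF598 was higher in G418 A than in either untreated library. That of TCF25, LTN1 and VCP was lower than in either. Of the factors, 0 of 7 reached an adjusted p below 0.05 (edgeR quasi-likelihood test, Benjamini-Hochberg over 5680 transcripts). In the whole tested set 3.63% passed, 3.05% as higher and 0.581% as lower in G418 A. At an unadjusted p below 0.05 there were 2 of 7 factors, ETF1 and TCF25, against 14.9% of the tested set. DESeq2 called none of the factors it gave an adjusted p (TCF25 and ZNF598 had none), and 3 of 7 had an unadjusted p below 0.05, against 6.92% of the tested set. A bulk library does not separate more mRNA from more ribosomes per mRNA, nor fewer cells with a transcript from less RNA per cell.

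ETF1 had 147.9, 129.6 and 197.2 RPKM (untreated 138.7 ± 13.0, n = 2). Its log2 change was 0.51 with an SE of 0.17 (edgeR, adjusted p = 0.0566), at percentile 89.6 of the changes of all tested transcripts. The G418 value stood above both untreated values, by 0.41 on the log2 scale over Untreated A and 0.61 over Untreated B, and the untreated libraries differed from each other by 0.19.

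ABCE1, which splits ribosomes after both termination and rescue, had 114.2, 98.4 and 130.4 RPKM. The change of 0.30 on the log2 scale (SE 0.17, edgeR adjusted p = 0.405) was not far beyond the 0.21 between the untreated libraries. HBS1L, the rescue GTPase, had 76.2, 67.3 and 77.1 RPKM, and its G418 density lay within 0.02 (log2) of Untreated A. Its log2 change over both was 0.11 (SE 0.18, edgeR adjusted p = 0.873).

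ZNF598, the collision sensor, had the lowest density of the 7, at 11.5, 13.8 and 17.8 RPKM, with G418 A above both untreated libraries. The log2 change of 0.49 had an SE of 0.27 (edgeR adjusted p = 0.391), as the density rested on 181, 351 and 344 CDS reads.

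TCF25, LTN1 and VCP act on the large subunit and its peptide, and their changes did not pass the test either. TCF25 had 35.4, 42.2 and 25.1 RPKM (untreated 38.8 ± 4.82, n = 2). Its log2 change of -0.63 had an SE of 0.22 (edgeR adjusted p = 0.0867), at percentile 1.09 of all tested transcripts. VCP had 394, 410 and 328 RPKM, and the deepest counts of the 7, with 5516 to 9272 CDS reads. Its log2 change was -0.29 (SE 0.16, edgeR adjusted p = 0.388), against 0.05 between the untreated libraries. The ligase LTN1 had 30.1, 29.8 and 26.5 RPKM, a log2 change of -0.18 (SE 0.18, edgeR adjusted p = 0.747).

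**Figure D1:**
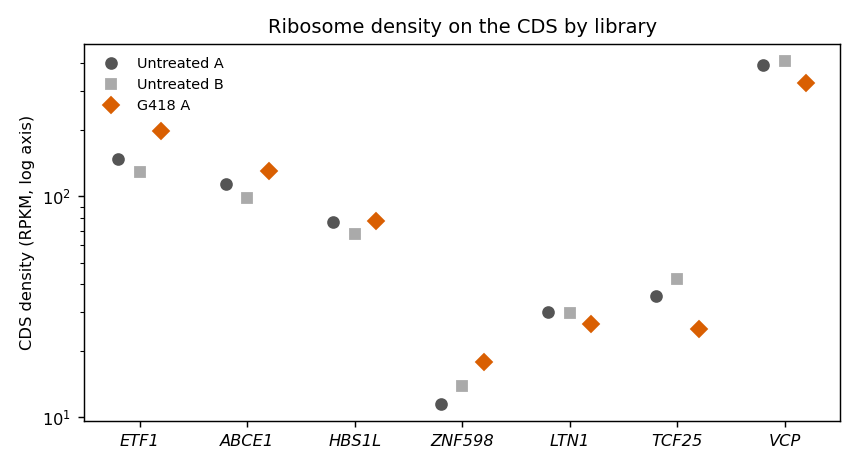
CDS density (RPKM, log axis) of the 7 listed factors in each library; each point is 1 library. VCP lies between 328 and 410 RPKM and ZNF598 between 11.5 and 17.8 RPKM, and for ETF1 the G418 A point (197.2) stands above both untreated points.

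In order of untreated density the factors were VCP, ETF1, ABCE1, HBS1L, TCF25, LTN1 and ZNF598. LTN1 (29.95 ± 0.209 RPKM) lay below both TCF25 values when untreated, while in G418 A TCF25 and LTN1 lay side by side at 25.1 and 26.5 RPKM. Of the 7 factors, 4 had a G418 density above both untreated libraries and 3 below both, on the scale of library depth. HBS1L was among the 4 by a narrow margin, with 77.1 RPKM in G418 A against 76.2 in Untreated A. A gap this small depends on the scaling, and the log2 change of HBS1L was 0.11 here and 0.03 after TMM scaling. In the tested set 46.3% of transcripts lay above both and 27.9% below both, so that a position outside the untreated pair was common. The median log2 change of the 7 was 0.11, and that of all tested transcripts 0.07. Between the untreated libraries the median absolute log2 difference over the tested set was 0.178, and 5% of transcripts differed by more than 0.607. Of all tested transcripts 173 were called higher and 33 lower in G418 A; after TMM scaling, which moved the median of all changes from 0.07 to 0.00, the calls were 108 and 41, and with DESeq2 10 and 17.

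**Figure D2:**
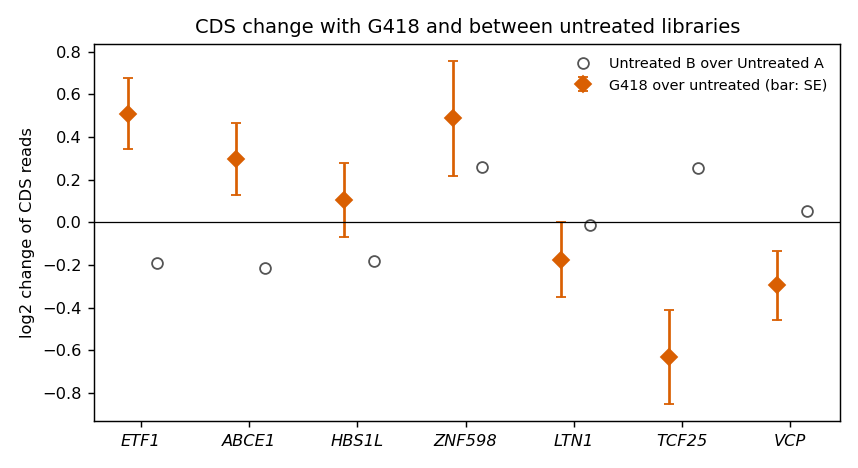
Log2 change in CDS density (G418 A over the untreated libraries) of the 7 factors, with diamonds for the edgeR estimate and bars for its SE, and open circles for Untreated B over Untreated A. ETF1 (0.51) and TCF25 (-0.63) lie farthest from 0, and none of the 7 passed an adjusted p below 0.05.

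The other genes of termination, ribosome recycling, rescue and quality control were read from a list of 42, of which 33 were tested. None of the 33 passed the adjusted threshold by edgeR, nor any of those with an adjusted p by DESeq2, and 3 of 33 had an unadjusted p below 0.05 by edgeR (0 of 33 by DESeq2). The changes were positive in 15 and negative in 18, with a range of -0.43 to 0.58. The largest 3 in size were EIF2D, DENR and GSPT2. EIF2D, which can release tRNA and mRNA from the small subunit after termination, had 20.2, 19.0 and 29.1 RPKM (log2 change 0.58, SE 0.27, edgeR adjusted p = 0.264). DENR, which acts at the same step with MCTS1, had 121.0, 100.6 and 157.1 RPKM (log2 change 0.51, SE 0.22, edgeR adjusted p = 0.230). MCTS1, looked up after these values were seen, had 227.0, 195.2 and 196.9 RPKM (log2 change -0.10, SE 0.19, edgeR adjusted p = 0.896). GSPT2, the near-identical copy of GSPT1, had 22.4, 20.8 and 16.0 RPKM (log2 change -0.43, SE 0.29, edgeR adjusted p = 0.531). A read matching several places was kept at 1 of them, so the GSPT2 values are uncertain.

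Readthrough of the factors' own stop codons was read as the ribosome readthrough score (RRTS), the density from 6 nt after the NTC to the 3′TC as a percent of the CDS density. In G418 A ribosomes were found past the NTC in all 7 factors, against 75.8% of the tested transcripts. Over the 7 together, reads in the region came to 3.72% (95% interval 1.70 to 7.06, 9 reads), 1.87% (0.752 to 3.85, 7 reads) and 25.04% (20.0 to 30.9, 86 reads) of the number expected at CDS density. The G418 value was 8.96 times the untreated mean of 2.79% ± 1.31 (n = 2), while the untreated libraries differed 1.99-fold. Over all tested transcripts the pooled RRTS was 1.57%, 1.25% and 21.3%, a rise of 15.2-fold over 1.41% ± 0.226. Intervals of RRTS are exact Poisson intervals and cover counting error only, and no test between conditions was made on RRTS because G418 had 1 library.

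ETF1, which encodes the protein that reads stop codons, gave the clearest counts. Its readthrough region held 2, 0 and 34 reads. The RRTS was 1.92% (0.233 to 6.95), 0 (up to 2.04% with 3 reads) and 19.9% (13.8 to 27.8). The G418 interval lay above both untreated intervals, which held for 1 of the 7 factors and for 25.8% of the tested transcripts. The rate was 25.02 times that of the combined untreated libraries (exact interval 6.41 to 215).

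ABCE1 had the highest RRTS of the 7 in G418 A. Its region held 6, 1 and 25 reads, which gave 19.9% (7.31 to 43.4), 2.38% (0.0603 to 13.3) and 59.0% (38.2 to 87.1). Untreated A carried most of the untreated signal, and its interval overlapped that of G418 A. With the untreated libraries pooled, the RRTS of ABCE1 was 9.71% (3.90 to 20.0), and the G418 rate was 6.08 times that (2.56 to 16.6).

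TCF25 had no readthrough read in either untreated library and 7 in G418 A. Its RRTS of 53.7% (21.6 to 111) was 7.82 times the limit of 3 reads over both untreated libraries, 6.86%. The exact interval of its rate over the untreated pool began at 4.83-fold. The upper end of the RRTS interval reached past the CDS density itself, as 7 reads allow little precision. ETF1, ABCE1 and TCF25 were the 3 of 7 factors whose G418 interval lay above that of the pooled untreated libraries, against 39.6% of the tested transcripts, a comparison added after the data were seen. The same 3 passed over Untreated B alone.

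The remaining 4 factors had between 4 and 6 readthrough reads in G418 A, and their intervals overlapped those of each untreated library. LTN1 had 0, 2 and 6 reads, and an RRTS of 36.1% (13.2 to 78.5) in G418 A, a rate 7.20 times that of the untreated pool (1.29 to 72.9). HBS1L had 1, 3 and 5 reads, and RRTS values of 6.22%, 13.1% (2.69 to 38.2) and 24.96% (8.11 to 58.3), with a rate 2.44 times that of the untreated pool (0.524 to 12.3). HBS1L and ABCE1 were the only 2 of 7 factors with readthrough reads in both untreated libraries, against 11.6% of the tested transcripts. VCP, with the shortest region and a UAA stop codon, had 0, 1 and 5 reads, and an RRTS of 11.7% (3.81 to 27.4) in G418 A, 13.1 times the untreated pool (1.46 to 619). ZNF598 had 0, 0 and 4 reads over its 303-nt region, and the lowest RRTS of the 7 in G418 A at 10.5% (2.86 to 26.9). That value was 2.06 times the limit of 3 reads over both untreated libraries, 5.09%, but its interval reached below this limit. The exact interval of the ZNF598 rate over the untreated pool began at 1.02-fold.

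**Figure D3:**
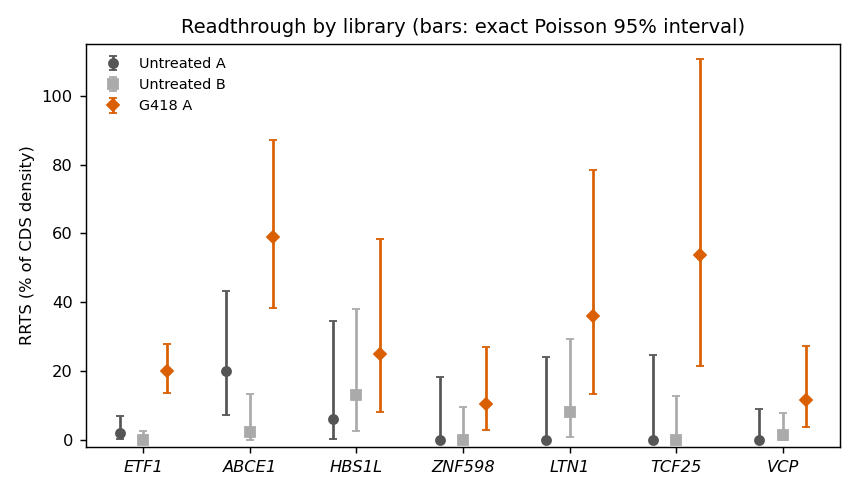
RRTS (percent of CDS density) of the 7 factors in each library; points are the values and bars exact Poisson 95% intervals. The G418 A bar of ETF1 (13.8 to 27.8) clears both untreated bars, and the bars of the other 6 factors overlap at least 1 untreated bar.

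Each factor was set beside the tested transcripts with its own 4-nt stop signal in G418 A. The RRTS of 5 of the 7 lay above the median of that class. ETF1, at 19.9%, stood beside a median of 13.4% over 338 transcripts ending in UAGG (percentile 66.4), and this median lay just under its interval. ABCE1, at 59.0%, stood above the upper quartile of 37.6% over 351 transcripts with UAGA (median 17.8%, percentile 87.3), and the lower end of its interval, 38.2%, lay beyond that quartile as well. It also ranked high in this class when untreated, at percentile 95.9 in Untreated A and 86.5 in Untreated B. Those ranks rested on 6 and 1 reads, with a class median of 0. TCF25 and LTN1 share the signal UGAG, and at 53.7% and 36.1% both lay above the median of 19.9% over 1054 transcripts, with the lower end of LTN1's interval under it. VCP stood at 11.7% against 5.73% over 412 transcripts with UAAG. HBS1L, at 24.96%, lay below the median of 31.5% over 375 transcripts with UGAU, and ZNF598 below the 18.7% of 342 transcripts with UAGC. For HBS1L, ZNF598, VCP and LTN1 the interval took in the median of the class.

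**Figure D4:**
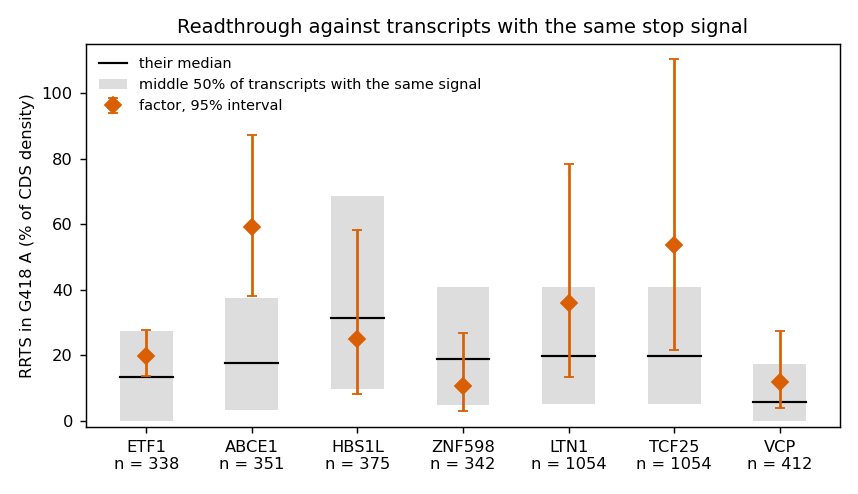
RRTS in G418 A (percent of CDS density) of each factor (diamond, bar for the exact Poisson 95% interval) against the tested transcripts with the same 4-nt stop signal (grey box for the middle 50%, line for the median, n for their number). ABCE1 (59.0%) lies above its box, and HBS1L and ZNF598 lie under their medians of 31.5% and 18.7%.

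Beyond the 3′TC the factors differed. ETF1 had 9, 3 and 7 reads in the rest of its 3′UTR, or 0.498%, 0.117% and 0.236% of its CDS density. In G418 A 82.9% of the 41 ETF1 reads in the 3′UTR lay in the readthrough region, 5.44% of the 3′UTR length. The length of this region takes in the 3′TC, so ribosomes on the 3′TC itself may be among them. ABCE1 had 1, 0 and 20 reads beyond its 3′TC, and a G418 density of 1.12% (0.683 to 1.73) of the CDS. Of its 45 3′UTR reads in G418 A, 55.6% lay in the readthrough region, 2.31% of the length. As density in G418 A, both fell steeply past the 3′TC. ETF1 went from 19.9% to 0.236% of its CDS density, and ABCE1 from 59.0% to 1.12%.

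HBS1L, with the longest 3′UTR, had 7, 4 and 17 reads beyond its 3′TC, and 22.7% of its 3′UTR reads in G418 A lay in its readthrough region. VCP had 0, 0 and 10 reads beyond its 3′TC, at 0.411% of the CDS density in G418 A, and LTN1 had 0, 3 and 7. TCF25 and ZNF598 had 1 read each in G418 A and none in the untreated libraries. Over the 7 factors the density beyond the 3′TC was 0.211%, 0.0826% and 0.608% of that expected at CDS density, from 17, 10 and 63 reads. The rise was 4.14-fold, with 2.56-fold between the untreated libraries, and 7.36-fold without Untreated A, beside 5.11-fold over all tested transcripts.

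Reads ahead of the start codon were also compared, as density of the 5′UTR over that of the CDS. ETF1 had 58, 82 and 38 reads in its 5′UTR. Its 5′UTR density was 44.04% (33.4 to 56.9) and 43.9% (34.9 to 54.5) of the CDS density when untreated and 17.6% (12.4 to 24.1) in G418 A. The untreated libraries lay on top of each other and G418 A lay below both, which held for 1 of 7 factors and for 2.72% of the tested transcripts that had a 5′UTR (5659). Without division by the CDS density the ETF1 5′UTR had 9.90, 8.65 and 5.27 RPM, again lowest in G418 A. On this scale the counting interval of G418 A overlapped that of Untreated B, though not that of Untreated A. The CDS density that the ratio divides by was itself highest in G418 A (147.9, 129.6 and 197.2 RPKM). The comparison of 5′UTR intervals was also added after the data were seen.

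HBS1L moved the other way, with 59.0% (44.2 to 77.2), 78.0% (63.4 to 94.8) and 101.9% (84.1 to 122.5) of its CDS density, but the interval in G418 A overlapped that of Untreated B. ABCE1 had 37.95% (26.1 to 53.3), 51.1% (39.2 to 65.6) and 31.9% (22.7 to 43.6), which overlapped in all 3 libraries. VCP had 8.63% (6.46 to 11.3), 14.8% (12.6 to 17.4) and 6.84% (4.95 to 9.21), and its untreated libraries did not overlap each other. TCF25 had 2 reads in its 5′UTR (70 nt) in Untreated B and none in the other libraries. LTN1 and ZNF598 had none, but were counted over only 7 and 68 nt. In G418 A these zeros allowed up to 276% of the CDS density for LTN1 and 42.3% for ZNF598, so they do not show absence of ribosomes. No factor had a G418 interval above both untreated ones (0.583% of the tested transcripts did). Pooled over the factors, the 5′UTR stood at 20.9%, 26.5% and 21.2% of the CDS density, a ratio of G418 A to the untreated mean of 0.897. The 5′UTR of HBS1L has 201 nt in the deposited table and 131 nt in the annotation used here. For the other factors the deposited 5′UTR was slightly shorter than the annotated one, as with 130 against 136 nt in ABCE1. The percentages of HBS1L rest on the 201 nt and would be higher over the shorter length, in the same proportion in all 3 libraries if the reads stayed the same.

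**Figure D5:**
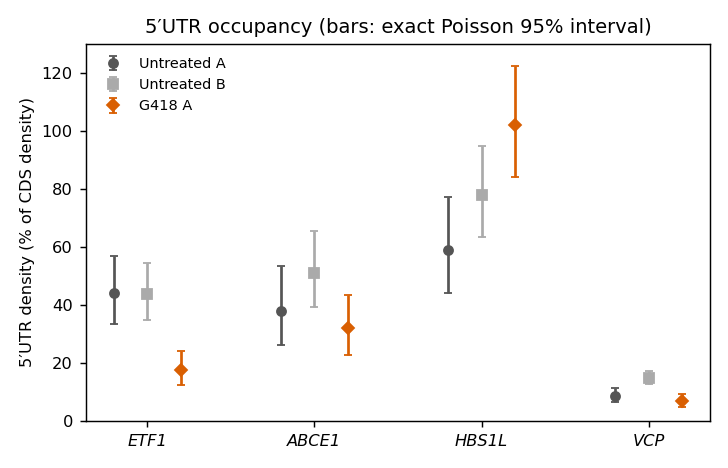
5′UTR density as a percent of CDS density for the factors with 5′UTR reads in every library, with bars for exact Poisson 95% intervals. For ETF1 the G418 A value (17.6%) lies below both untreated values (44.04% and 43.9%), and for HBS1L G418 A is the highest value (101.9%).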

How the data were processed

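Reads from monosome footprints were processed by the authors: sequencing duplicates sharing a unique molecular identifier were collapsed, noncoding RNA was removed, and reads were aligned with STAR to hg38 with GENCODE v30, keeping the primary alignment only. Fragments of 28 to 35 nt were assigned to A sites on 1 transcript per gene. The submitters' processing notes also name CASAVA 1.8. For every transcript the authors deposited RPM values, whole-number counts, RPKM densities (CDS ends left out) and the ratio called RRTS. Every deposited RPM value was a whole multiple of 1 read (tolerance 0.01), so reads were recovered. The deposited CDS count was 1 lower than the recovered reads for 9080 (Untreated A), 283 (Untreated B) and 72 (G418 A) transcripts. The tables listed transcripts of at least 1 RPKM with a readthrough region of at least 18 nt, and the authors had removed transcripts that overlap neighbouring genes or whose UTRs overlap pseudogenes, so absence from them is no measure of translation.

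Groups came from the treatment label. CDS counts as deposited were tested with edgeR 4.0.16 in R 4.3.3 (quasi-likelihood, library sizes equal to the reads behind the RPM scale, mean of at least 128 CDS reads). The fit had 1 residual degree of freedom, and G418 A is assumed to vary like the untreated libraries. DESeq2 1.42.0, TMM scaling, recovered reads, other filters and leaving out each untreated library were alternatives. Readthrough and UTR values used recovered reads with exact Poisson 95% intervals; a count of 0 was given the limit of 3 reads. Stop contexts came from GENCODE v44. The members and lists were chosen with earlier results of these data known. All members were named, and of the pathway list those past the threshold or, with none, the 3 largest changes in size. The 2 comparisons of intervals against pooled untreated libraries and of 5′UTR intervals were chosen after seeing the data.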

Additional observations from a re-analysis of the deposited data

How the results depend on the processing

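Of 102 alternative values over 18 results, 94 were labelled the same and 8 moved. The same meant the same side of the threshold, within the replicate spread or within 1.5 times the count. No log2 change of a named gene changed sign, and with no factor or pathway gene called, no call could be lost. The replicate spread was the SD of the 2 values from leaving out each untreated library. A single gene's main log2 change lay near the middle of those 2 values, so they could not count as moved. Readthrough without a minimum of CDS reads could not differ either, as all 7 factors passed that minimum. Among medians with no call, that of the factors' log2 changes (0.11) went to -0.03 with at least 500 CDS reads, which dropped ZNF598. That of the pathway genes (-0.0031) moved to -0.074 with TMM scaling, -0.077 with DESeq2 and -0.063 with at least 500 CDS reads. Without Untreated A the pathway median was 0.0026 and without Untreated B -0.0098, so its sign depended on the untreated library kept. Both were labelled the same, by a spread taken from these 2 values. The count of factors called for CDS density was 0, and that of pathway genes 0, under every alternative run with a test; DESeq2 left the adjusted p of some genes, TCF25 and ZNF598 among them, undefined. The adjusted p of ETF1 ranged from 0.0565 to 0.441 over all settings, and that of TCF25 from 0.0595 to 0.115. The rise of pooled readthrough in the factors (8.96-fold) was 34.9-fold by the median of the deposited RRTS, a value with little meaning because the untreated medians were 0 and 1.43%, the latter from 1 read on VCP; it was 7.38-fold without ETF1, and 6.73-fold to 13.4-fold when 1 untreated library was left out. The rise beyond the 3′TC was 2.88-fold to 7.36-fold when 1 untreated library was left out, the higher value without Untreated A. The number of factors whose readthrough interval passed was 1 in the report, 3 with the untreated libraries pooled (chosen after seeing the data) and 1 to 3 when 1 was left out, the higher count without Untreated A. The ratio of 5′UTR occupancy ranged from 0.802 to 1.02 when 1 untreated library was left out. Leaving out an untreated library gave values only, as no residual degrees of freedom were left, and the only G418 library could not be left out. CDS density over the whole CDS was not run, because the deposited values leave out the CDS ends. No paired analysis was possible because the groups share a single replicate letter. Depth limits the readthrough of HBS1L, LTN1, VCP and ZNF598, with 4 to 6 reads each in G418 A. The causes of these shifts were not tested.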

Other observations

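Readthrough was also read in the 33 tested genes of the pathway list. In G418 A 25 of the 33 had an RRTS above 0, against 75.8% of the tested transcripts, and for 8 of 33 the exact Poisson 95% interval lay above both untreated intervals, against 25.8%. Both counts were near those of the tested set. The 8 are described here by the values that selected them. TRMT112, the partner of the methyltransferase that modifies eRF1, had the highest RRTS of the 8, with 6.42%, 0.874% and 210.8% (176.8 to 249.5) from 4, 1 and 135 reads in Untreated A, Untreated B and G418 A. TRIP4, a subunit of the complex that pulls collided ribosomes apart, had 0, 0 and 15 readthrough reads (Untreated A, Untreated B, G418 A). Its RRTS in G418 A was 126.8% (70.9 to 209). For TRMT112 and TRIP4 the density past the NTC was above that of the CDS, though the interval of TRIP4 reached below it. Such values cannot be read as the share of ribosomes that passed the stop codon, and their source was not tested. GCN1, which binds collided ribosomes on the way to the integrated stress response, had 1, 0 and 26 reads and an RRTS of 47.9%. RACK1, a small-subunit protein at the site where colliding ribosomes meet, had 2, 6 and 89 reads, with RRTS values of 0.776%, 1.34% and 27.1%. EIF5A, the factor that also speeds peptide release at termination, had 2, 6 and 113 reads at a UAAC signal, and its RRTS went from 0.441% and 0.840% to 18.6%. EDF1, which joins collided ribosomes, stood lower at 6.40%, from 2, 0 and 32 reads. The ubiquitin ligase RCHY1 had 0, 0 and 16 reads, which put its G418 RRTS at 53.2%, and the initiation factor EIF1AX had 8, 11 and 64 reads, with 2.43%, 2.65% and 18.5%. Outside the 8, GSPT2 had 0, 0 and 1 reads, and DENR and EIF2D had none in any library.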
